A study of Mus musculus with 12 samples.

Results

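The genes described here are Kitl, its receptor Kit, and 8 genes whose proteins sit next to the activated receptor: the SRC-family kinases Lyn, Fyn and Src, the phosphatases Ptpn6 and Ptpn11, the adaptor Gab2, and the negative regulators Cbl and Sh2b3. They were taken by symbol from the tables of raw counts and TPM (transcript counts per unit of gene length, set to the same sum in every library), where each of the 10 names matched 1 of 49671 genes. Kit did not have enough counts to be tested, and the other 9 were among the 15271 genes that passed the filter on low counts.

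KITL, also called stem cell factor, is made as a membrane-bound protein that can be cleaved and released. It binds and dimerises the receptor tyrosine kinase KIT on mast cells, melanocytes, germ cells, interstitial cells of Cajal and blood progenitors, and stromal cells such as fibroblasts are among its sources. On the receptor, SRC-family kinases dock near the membrane, GAB2 and other adaptors bring in PI3K and the phosphatase SHP2 (Ptpn11), SHP1 (Ptpn6) dephosphorylates the receptor and its partners, CBL attaches ubiquitin to it, and the adaptor LNK (Sh2b3) dampens its signal.

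Poly(A) RNA was sequenced from ImPSC-1, an immortalised mouse line of pancreatic stellate cells, the mesenchymal cells of the pancreas. All 4 groups were stable derivatives of this line kept in DMEM with serum, pyruvate and antibiotics, with 3 libraries each. The shCtrl cells carried the PLKO.1 vector and are labelled WT, the shKitl cells carried a hairpin against Kitl and are labelled as a Kitl knockdown, the Egfp_OE cells overexpressed Egfp and the Kitl_OE cells overexpressed Kitl. One line per construct was profiled, and nothing in the labels says that replicates were separate cultures, so the p-values measure the spread between these libraries, which may be technical. The sample descriptions also carry a P number, whose meaning is not stated. For replicates 1, 2 and 3 it was 14, 15 and 16 in shCtrl and 13, 14 and 15 in shKitl. In Egfp_OE it was 17, 18 and 19, and in Kitl_OE 18, 19 and 20. All overexpression libraries thus had higher P numbers than all hairpin libraries. The 2 control lines therefore differ in P number as well as in construct.

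Gene counts came to between 24979742 and 33517686 per library. The stellate genes Vim and Col1a1 were abundant in all 12 libraries, whereas Lrat, the retinol-esterifying enzyme of quiescent stellate cells, had 0 to 2 counts per library. The library Egfp_OE replicate 2 stood apart. ERCC spike-in RNA took 1.35% of its counts against 0.446% to 0.684% in the other 11 libraries, and 28.5% of genes lay more than 1 log2 unit from the mean of the other 2 libraries of its group, against 2.61% to 13.8% in the others. All 9 tested genes were lower in it than in the mean of Egfp_OE replicates 1 and 3, with a median log2 difference of -0.90 beside a median of 0.001 over all genes. Fold changes of the 9 tested genes and of the pathway genes named below are therefore also given without it for the overexpression comparison. Those of cell type markers other than Pdgfra are not.

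**Figure D1:**
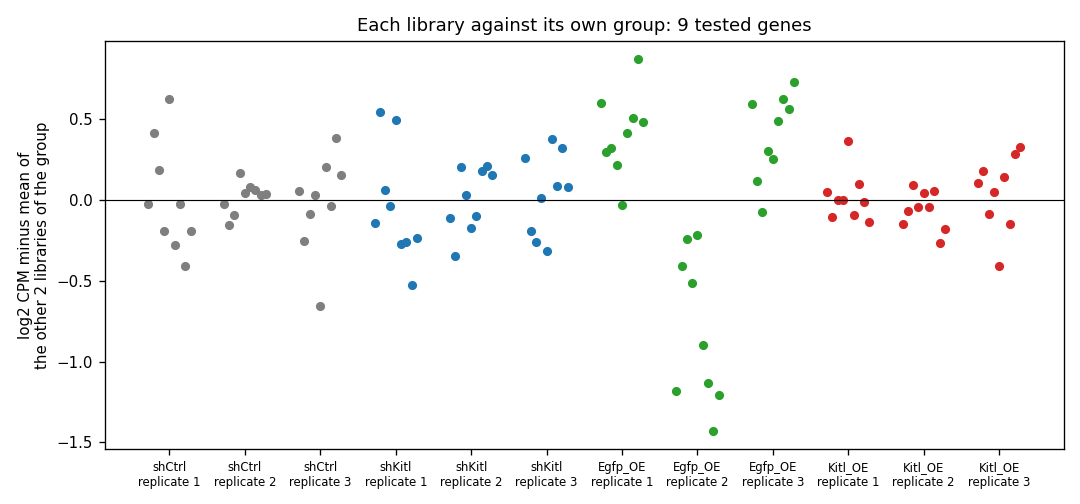
Difference in log2 CPM (counts relative to the library total) between each library and the mean of the other 2 libraries of its group, 1 point for each of the 9 tested genes, ordered within a library as Kitl, Lyn, Fyn, Src, Ptpn6, Ptpn11, Gab2, Cbl and Sh2b3. In Egfp_OE replicate 2 all 9 points lie below 0, with a median of -0.90.

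The sequences upstream of 3 of the genes that were higher in the cells overexpressing Kitl are shown because these genes moved together in that comparison. They are RefSeq sequences on GRCm38.p6, 5′ to 3′ on the gene's strand, from 250 bases before the RefSeq start up to the first base of an exon that GENCODE annotates for the gene: Ptpn6 at chr6:124738715-124738959 on the minus strand, Fyn at chr10:39369549-39369763 and Src at chr2:157424043-157424115 on the plus strand. Capitals mark matches, on either strand, to the GC box GGGCGG, the TATA box TATAAA, the CCAAT box CCAAT, the ETS core CCGGAA or the TEAD core CATTCC. The last capitals of the Ptpn6 stretch begin a GC box match that ends inside the exon.
Ptpn6 promoter: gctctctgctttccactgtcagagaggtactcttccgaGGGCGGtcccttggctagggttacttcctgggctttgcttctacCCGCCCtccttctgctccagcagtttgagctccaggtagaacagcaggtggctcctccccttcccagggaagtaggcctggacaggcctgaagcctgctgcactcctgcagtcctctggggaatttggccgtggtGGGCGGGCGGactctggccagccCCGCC
Fyn promoter: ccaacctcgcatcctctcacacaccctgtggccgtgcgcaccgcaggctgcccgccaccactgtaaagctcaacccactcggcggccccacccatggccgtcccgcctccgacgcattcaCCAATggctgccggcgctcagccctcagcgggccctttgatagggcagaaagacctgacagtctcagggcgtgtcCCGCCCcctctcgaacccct
Src promoter: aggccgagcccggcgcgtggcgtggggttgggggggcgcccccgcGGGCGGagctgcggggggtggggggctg
Each of the 3 windows held the GC box, with overlapping matches in Ptpn6, and so did 32.7% of the 32851 RefSeq windows of 250 bases. The GC box was not particular to the genes that rose. It was also in the windows of Kitl, Kit, Ptpn11 and Cbl, and not in that of Sh2b3. Neither Ptpn11 nor Cbl rose in that comparison. The Fyn window also held a CCAAT box, as did 33.8% of the windows. No TATA box, ETS core or TEAD core was found in the Ptpn6, Fyn or Src window, and these letters occurred in 12.4%, 12% and 12.6% of the RefSeq windows. Over 250 bases, G and C made up 63.2% of the Ptpn6 window, 67.2% of the Fyn window and 82.8% of the Src window, against a median of 52.4%. In the Kitl window, 191 of the 250 bases lie in an exon that GENCODE annotates for Kitl, and it is not printed. Such matches describe the letters and not binding.

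On the TPM scale, which allows levels of different genes to be compared, the genes differed widely. Averaged over the 12 libraries, Ptpn11 was the most abundant at 149 TPM, followed by Src at 62.9, Fyn at 61.8, Sh2b3 at 37.9 and Kitl at 36.4 TPM. Gab2 stood at 16.3, Cbl at 15.2, Lyn at 9.98 and Ptpn6 at 3.39 TPM. The ligand and the widely expressed signalling genes were thus present, and the genes known mainly from blood cells, Lyn and Ptpn6, were the lowest of the 9.

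Kit, on chromosome 5 (GRCm38, 75574916 to 75656722), was close to absent. Its counts were 2, 1 and 0 in shCtrl replicates 1, 2 and 3, 1, 1 and 0 in shKitl, 0 in each Egfp_OE library, and 0, 0 and 1 in Kitl_OE. These 6 reads came from all 12 libraries, and the groups could not be told apart at this depth. For shCtrl, 3 counts of 79728242 correspond to 0.0376 CPM with an exact 95% Poisson interval of 0.00776 to 0.11. For Egfp_OE, 0 of 86989959 counts give an exact upper bound of 0.0424 CPM on the same basis, and 0.0345 CPM if 3 counts are taken as the limit. These bounds cover counting error only. The 9 other genes were therefore measured in cells with next to no Kit transcript in any group.

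The targeted gene followed the labels in direction. Kitl lies on chromosome 10 (GRCm38, 100015630 to 100100416, plus strand), and GENCODE lists 4 coding transcripts, which the counts do not separate, nor do they separate introduced from endogenous copies. In CPM scaled by TMM, Kitl was 73.5, 73.6 and 76.4 in shCtrl replicates 1, 2 and 3, and 25.1, 25.5 and 30.3 in shKitl. It was 72.5, 31.8 and 72.3 in Egfp_OE and 125, 114 and 128 in Kitl_OE. On this scale Kitl_OE was the highest group and shKitl the lowest, with no overlap between either and any other group. Egfp_OE lay in between, and its replicate 2 came close to the knockdown libraries while its other 2 libraries were just under shCtrl. On TPM, Egfp_OE replicate 2 had 12.6, within the shKitl range of 12.2 to 16.2.

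In the knockdown, the Kitl log2 fold change was -1.46 (SE 0.26), a 2.76-fold lower level. It missed the threshold in edgeR's quasi-likelihood test (Benjamini-Hochberg adjusted p = 0.121, unadjusted p = 0.000117, n = 3 against 3), in which 0% of the 15271 genes passed an adjusted p of 0.05 and 2417 genes had an unadjusted p under 0.05. DESeq2 gave -1.50 with an adjusted p of 0.000128 and called 428 genes. Without Egfp_OE replicate 2, which enters the shared estimate of the spread, the edgeR adjusted p was 0.000725, and without shKitl replicate 3 it was 0.0397.

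In the overexpression, Kitl rose by 1.06 on the log2 scale (SE 0.26), or 2.08-fold, with an edgeR adjusted p of 0.00836. Without Egfp_OE replicate 2 the log2 fold change was 0.77, and with scaling by spike-in totals it was 0.95 with an adjusted p of 0.242. The overexpression effect minus the knockdown effect on Kitl was 2.52 (SE 0.36, edgeR adjusted p = 0.0011).

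**Figure D2:**
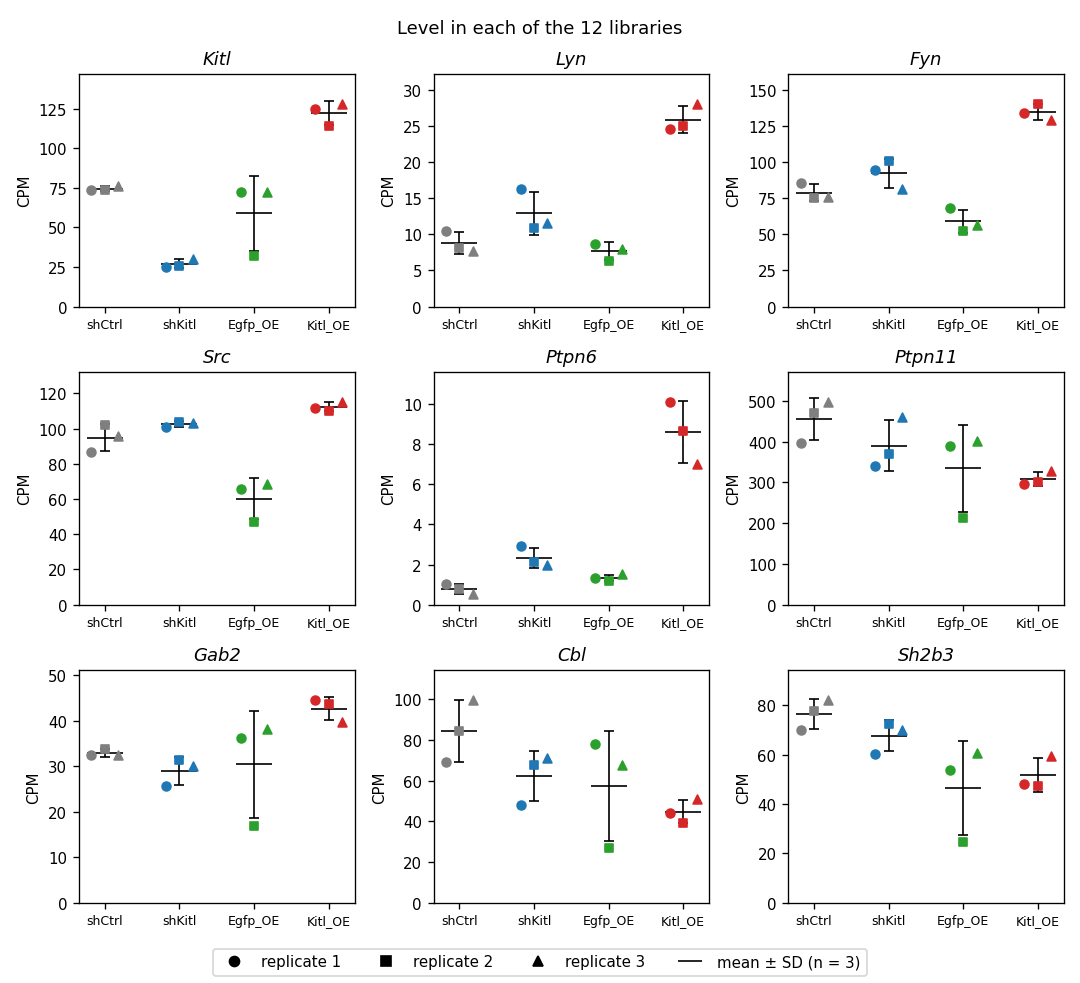
CPM scaled by TMM in each library for the 9 tested genes, by group, on axes that start at 0. Symbols give the replicate number, which is not said to pair samples across groups, and bars give the mean and SD of 3 libraries. Kitl, Lyn, Fyn, Src, Ptpn6 and Gab2 have all 3 Kitl_OE points above all Egfp_OE points.

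Among the SRC-family kinases, Lyn, Fyn and Src all rose in Kitl_OE against Egfp_OE, and none passed the edgeR threshold in the knockdown. Lyn, a kinase best known from B cells and mast cells, was 8.7, 6.25 and 7.99 CPM in Egfp_OE replicates 1, 2 and 3 and 24.6, 25 and 28 CPM in Kitl_OE. The log2 fold change was 1.75 (SE 0.22, adjusted p = 0.00016 in edgeR's quasi-likelihood test), or 3.38-fold. In the hairpin lines Lyn was 10.5, 8.08 and 7.71 CPM in shCtrl and 16.3, 10.8 and 11.6 in shKitl. In CPM these groups did not overlap either, and the higher level was again on the side of the manipulated line, with a log2 fold change of 0.56 (SE 0.21, edgeR adjusted p = 0.264). On TPM they overlapped, with 8.65 in shCtrl replicate 1 against 8.38 in shKitl replicate 2.

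Fyn, which acts beside LYN on KIT and is expressed in many tissues, was 68, 52.5 and 56.7 CPM in Egfp_OE and 134, 140 and 129 in Kitl_OE. It rose by 1.18 on the log2 scale (SE 0.15, edgeR adjusted p = 0.000157). Its level was 85.7, 75.3 and 75.6 CPM in shCtrl and 94.4, 101 and 81.4 in shKitl, 2 groups that overlapped. The knockdown log2 fold change was 0.23 (SE 0.15, edgeR adjusted p = 0.451).

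Src, the founding member of the family, was 65.6, 46.8 and 68.3 CPM in Egfp_OE and 112, 110 and 115 in Kitl_OE. The increase was 0.90 on the log2 scale (SE 0.16, edgeR adjusted p = 0.00127), and with spike-in scaling it was 0.87 with an adjusted p of 0.196. In shCtrl it was 86.6, 102 and 96 CPM, and in shKitl 101, 104 and 103, a log2 fold change of 0.11 (SE 0.15, edgeR adjusted p = 0.757). All hairpin libraries thus lay above all Egfp_OE libraries for Src, and nearer to Kitl_OE than Egfp_OE did. The difference between the 2 control lines, Egfp_OE minus shCtrl, was -0.66 (SE 0.16) and just missed the edgeR threshold (adjusted p = 0.0563), while DESeq2 gave an adjusted p of 0.00479.

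Of the 2 SHP phosphatases, Ptpn6 rose in Kitl_OE and Ptpn11 did not pass the test. Ptpn6, which encodes SHP1, was the lowest of the tested genes and changed most. It had 13 to 32 counts per library in shCtrl, and its CPM was 1.05, 0.788 and 0.551 there, 2.91, 2.12 and 1.98 in shKitl, 1.32, 1.2 and 1.51 in Egfp_OE, and 10.1, 8.68 and 7 in Kitl_OE. Every library of the 2 manipulated lines was above every library of its control line. In Kitl_OE the log2 fold change was 2.67 (SE 0.30, edgeR adjusted p = 8.55e-05), or 6.38-fold; limma on log2(TPM + 1) gave 2.04. In the knockdown it was 1.54 (SE 0.31), which missed the threshold in edgeR (adjusted p = 0.134) and passed it in DESeq2 (1.49, adjusted p = 0.00177). Without shKitl replicate 3 the edgeR value was 1.63 with an adjusted p of 0.0415.

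Ptpn11, which encodes SHP2 and is needed for RAS activation downstream of many receptors, was 398, 471 and 497 CPM in shCtrl and 341, 370 and 461 in shKitl. It was 389, 212 and 402 CPM in Egfp_OE and 296, 302 and 329 in Kitl_OE. The groups overlapped in both comparisons, with log2 fold changes of -0.22 (SE 0.23, edgeR adjusted p = 0.657) and -0.11 (SE 0.23, edgeR adjusted p = 0.734). The latter was -0.34 (edgeR adjusted p = 0.108) without Egfp_OE replicate 2, and slightly above 0 without either of the other 2 Egfp_OE libraries.

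The ratio of the 2 phosphatases within a library, a measure chosen after the values were seen, shows the same on the TPM scale. Ptpn6 came to 0.484% ± 0.208 (SD, n = 3) of the Ptpn11 level in shCtrl and 1.14% ± 0.328 in Egfp_OE, the controls, to 1.65% ± 0.577 in shKitl and to 7.5% ± 1.71 in Kitl_OE. The 3 Kitl_OE libraries, at 5.71% to 9.11%, lay above the other 9, of which the highest was 2.28%. Lyn made up 9.17% ± 0.678 of the summed SRC-family TPM in Kitl_OE, against 4.29% ± 0.818 in shCtrl, 5.75% ± 1.33 in shKitl and 5.08% ± 0.0933 in Egfp_OE.

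**Figure D3:**
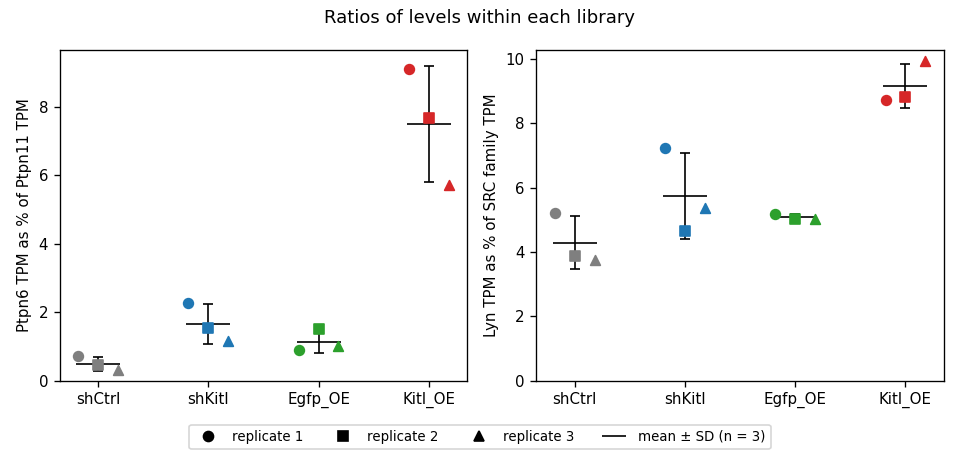
Ptpn6 TPM as a percent of Ptpn11 TPM (left) and Lyn TPM as a percent of the summed SRC-family TPM (right) in each library, by group, with the mean and SD of 3 libraries. On the left the Kitl_OE libraries lie between 5.71% and 9.11% and the other groups at or below 2.28%.

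Lyn and Ptpn6 are best known from blood cells, so blood and mast cell markers were measured beside them. Of 13 such markers 12 were in the table. Ptprc (CD45, carried by nearly all white blood cells) had 0 or 1 count in each of the 12 libraries, and Cd3e, Fcer1a and Mcpt4, markers of T cells and mast cells, had 0 in all of them. The summed TPM of the list ran from 22.4 to 33.9 in Kitl_OE and from 8.19 to 9.75 in Egfp_OE, with Lyz2 the highest gene in the former. Lyz2, the lysozyme of macrophages, rose by 4.44 on the log2 scale (SE 0.96, edgeR adjusted p = 0.00461), and the macrophage gene Cd68 had -0.79 (edgeR adjusted p = 0.0744). Hdc, also on the list, had -0.49 (edgeR adjusted p = 0.614). In the hairpin lines the list summed to 5.37 to 12.5 TPM in shCtrl and 8.66 to 20.5 in shKitl.

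Markers of mesothelium, the lining of the body cavities, moved further. Their summed level was 397 to 667 TPM in Kitl_OE against 20.2 to 30.8 in Egfp_OE, and 152 to 235 in shKitl against 110 to 135 in shCtrl. All 6 tested markers of the 8 rose in Kitl_OE, among them Gpm6a, at 105, 192 and 135 TPM in Kitl_OE against at most 0.227 in Egfp_OE. The endothelial and stellate lists moved too. Epithelial markers summed to 4.78 to 15.9 TPM in Kitl_OE and 4.39 to 6.52 in Egfp_OE, which overlapped. Of these, Krt7 had 1.65 and Krt19 0.79 on the log2 scale and did not pass (edgeR adjusted p = 0.159 and 0.403). Of the endothelial markers, Kdr rose by 2.69 on the log2 scale (edgeR adjusted p = 0.000157) and Tek had -0.02 (edgeR adjusted p = 0.978). Pecam1, Cdh5 and Tie1 had too few counts to be tested. Of the stellate markers, Acta2 rose by 4.23 and Col1a1 by 2.53, and Thy1 fell by 2.49 (edgeR adjusted p = 0.00215, 0.00178 and 0.000481). Pdgfra, also on that list, fell by 3.68 (edgeR adjusted p = 0.000412). Vim and Col1a2 rose by 1.20 and 1.44 (edgeR adjusted p = 0.000776 and 0.00841), and Des, Col3a1 and Pdgfrb did not pass in edgeR. The summed stellate level was 11400 to 13900 TPM in Kitl_OE and 2080 to 3080 in Egfp_OE, and the endothelial one 7.46 to 9.12 and 1.62 to 2.27 TPM. The part of any of these sets in the levels of Lyn and Ptpn6 was not tested.

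Neither the adaptor nor the negative regulators passed the threshold in either comparison with all 12 libraries. Gab2 was 36.2, 16.9 and 38.2 CPM in Egfp_OE and 44.5, 43.7 and 39.7 in Kitl_OE, where all 3 libraries were higher. On TPM the groups overlapped, with 20.6 in Egfp_OE replicate 3 against 19.3 in Kitl_OE replicate 3. The log2 fold change was 0.48 (SE 0.25, edgeR adjusted p = 0.152), and 0.21 (edgeR adjusted p = 0.164) without Egfp_OE replicate 2. In the hairpin lines Gab2 stood at 32.5, 33.9 and 32.4 CPM in shCtrl and 25.6, 31.3 and 30 in shKitl, which was lower in all 3 libraries by a log2 fold change of -0.18 (SE 0.25, edgeR adjusted p = 0.744). On TPM these groups overlapped too, with 14.9 in shCtrl replicate 3 against 16.1 in shKitl replicate 2.

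Cbl, the ubiquitin ligase, was 69.1, 84.5 and 99.4 CPM in shCtrl and 48, 67.4 and 70.9 in shKitl, a log2 fold change of -0.44 (SE 0.32, edgeR adjusted p = 0.509). It was 77.9, 26.9 and 67.5 CPM in Egfp_OE and 44.2, 39.3 and 50.8 in Kitl_OE. The low value of Egfp_OE replicate 2 made these groups overlap, with a log2 fold change of -0.36 (SE 0.32, edgeR adjusted p = 0.415). Without that library Cbl fell by 0.69 and passed the threshold (edgeR adjusted p = 0.0186).

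Sh2b3 was 69.9, 77.6 and 82.1 CPM in shCtrl against 60.5, 72.4 and 70 in the knockdown. Its level was 54, 24.7 and 60.6 CPM in Egfp_OE against 48.2, 47.2 and 59.7 in Kitl_OE. The libraries overlapped in both comparisons, with log2 fold changes of -0.18 (SE 0.27, edgeR adjusted p = 0.775) and 0.15 (SE 0.27, edgeR adjusted p = 0.689). The latter was -0.14 without Egfp_OE replicate 2. Sh2b3 shares 99 exon bases with Atxn2 on the opposite strand, a gene with more counts in all, and without a stated strand setting for the counting its counts are uncertain. Lyn and Ptpn6 share 248 and 195 exon bases with the opposite-strand genes Gm26857 and Gm20531. Those had 40 and 6 counts over the 12 libraries, against 4604 for Lyn and 1081 for Ptpn6.

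**Figure D4:**
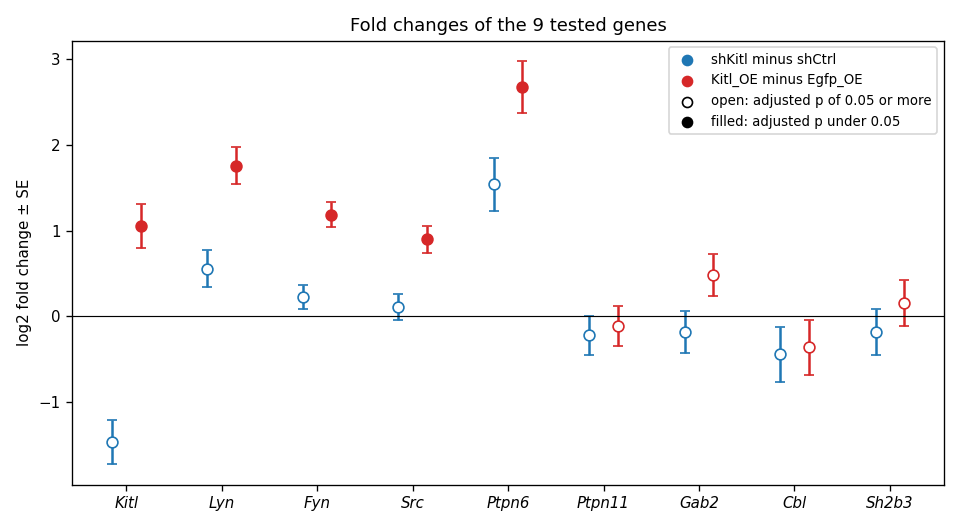
Log2 fold change ± SE from edgeR for the 9 tested genes in shKitl minus shCtrl (blue) and Kitl_OE minus Egfp_OE (red), with filled points past an adjusted p of 0.05. The 5 filled points, Kitl, Lyn, Fyn, Src and Ptpn6, are all in the overexpression and lie between 0.90 and 2.67.

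Counted together, 5 of the 9 tested genes passed the edgeR threshold as higher in Kitl_OE and 0 as lower, where 15.4% of all tested genes were called higher and 18.9% lower. The median log2 fold change of the 9 was 0.90, beside -0.07 for all genes. These figures include Kitl, the gene overexpressed by design. Members and gene lists were chosen with earlier results of these data known. Setting their counts beside all genes, here and below, is therefore a description and not a test. Of the 8 tested members other than Kitl, 4 were called higher and 0 lower, with a median of 0.69. Without Egfp_OE replicate 2 the same 5 were called higher, with log2 fold changes of 1.64 for Lyn, 1.12 for Fyn, 0.76 for Src and 2.62 for Ptpn6, and Cbl lower, and with spike-in scaling only Lyn, Fyn and Ptpn6 passed. In CPM, the Kitl_OE and Egfp_OE libraries did not overlap for 6 genes, the 5 called and Gab2, all higher in Kitl_OE. Over all genes such separation in CPM occurred in 24.9% as higher and 25.6% as lower. On TPM the Gab2 libraries overlapped. In the knockdown 0 of the 9 passed in edgeR and 3, Kitl, Lyn and Ptpn6, had an unadjusted p under 0.05, as did 15.8% of all genes. DESeq2 called 2, Ptpn6 higher and Kitl lower, beside 2.05% of all genes higher and 0.745% lower. In CPM, the hairpin lines did not overlap for Lyn and Ptpn6 as higher and for Kitl and Gab2 as lower, where 11% of all genes were separated as higher and 8.64% as lower. On TPM, Lyn and Gab2 overlapped between the hairpin lines.

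Whether the response to overexpression differed from that to knockdown was tested as the difference of the 2 effects. It passed in edgeR for 4 of the 9 genes, all with a higher value for overexpression, where 4.07% of all genes passed as higher and 9.88% as lower. They were Kitl, given above, Lyn with 1.20 (SE 0.30, adjusted p = 0.0225), Fyn with 0.96 (SE 0.21, adjusted p = 0.0106) and Src with 0.79 (SE 0.22, adjusted p = 0.0339). Leaving aside Kitl, which was manipulated by design, 3 of 8 tested members passed. Ptpn6, with 1.14 (SE 0.42), missed the edgeR threshold (adjusted p = 0.0968) and passed in DESeq2 (adjusted p = 0.0456). With spike-in scaling none of the 9 passed. Leaving out shCtrl replicate 2 or 3, any shKitl library or any Kitl_OE library ended the call for Src, with adjusted p-values from 0.0563 to 0.0899. Leaving out shKitl replicate 2 or Kitl_OE replicate 2 or 3 ended it for Lyn (0.0552, 0.0503 and 0.0582). With limma on log2(TPM + 1) and log2(TPM + 0.1), Lyn (0.0656 and 0.0723), Fyn (0.061 and 0.0583) and Src (0.149 and 0.145) missed the threshold. Src also missed it with every gene with any count (0.101) and with the P number of the sample descriptions as a covariate (0.72, adjusted p = 0.117), whereas Ptpn6 then passed (1.52, adjusted p = 0.0483), as it did on log2(TPM + 1) (0.0369). Egfp_OE replicate 2 left out, the differences were 1.11 for Lyn, 0.92 for Fyn and 0.67 for Src, all past the threshold, and 2.26 for Kitl.

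The 2 control lines also differed in places. In Egfp_OE minus shCtrl, edgeR called 0 of the 9 genes, where 0.511% of all genes were called higher and 0.74% lower, and DESeq2 called Src and Fyn lower, where it called 5.07% of all genes higher and 4.13% lower. Of the 9, 4 had an unadjusted p under 0.05, as did 24.4% of all genes. Src is described above. Fyn had a log2 fold change of -0.42 (edgeR adjusted p = 0.127, DESeq2 0.0459), Sh2b3 -0.72 (edgeR adjusted p = 0.143) and Ptpn6 0.74 (edgeR adjusted p = 0.174). Leaving out Egfp_OE replicate 2 gave -0.50 for Src with an edgeR adjusted p of 0.0421, and without shCtrl replicate 1 it was -0.72 with 0.0446.

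Beyond these genes, 69 further genes of the KIT pathway and of related receptors were examined by role, 60 of which had enough counts. In Kitl_OE against Egfp_OE, 11 (18.3%) were called higher and 10 (16.7%) lower by edgeR, with a median log2 fold change of 0.10. These shares are near the 15.4% and 18.9% over all genes, so the list as a whole did not stand out, and the genes below are given as single genes. Without Egfp_OE replicate 2 the counts were 13 and 16, and with spike-in scaling 6 and 5. In the knockdown edgeR called 0 of the 60 and DESeq2 0, while 11 (18.3%) had an unadjusted p under 0.05, near the 15.8% over all genes. The larger changes of each role follow, with mean CPM ± SD over 3 libraries and edgeR's adjusted p.

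Among 6 tested cytoplasmic tyrosine kinases, 1 rose and 2 fell. Fes fell from 6.69 ± 0.18 to 2.06 ± 0.778 CPM, a log2 fold change of -1.69 (SE 0.40, adjusted p = 0.00724). It is a kinase of its own family, best known from myeloid cells.

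Among 9 tested adaptors, 2 rose and 1 fell. Gab1, the relative of Gab2, rose from 24 ± 2.4 to 66.1 ± 4.92 CPM (log2 fold change 1.46, SE 0.23, adjusted p = 0.000795). Vav2, a guanine nucleotide exchange factor, rose from 22.5 ± 7.81 to 74.6 ± 4.24 CPM (log2 fold change 1.73, SE 0.23, adjusted p = 0.000233). The scaffold that passed the threshold was thus Gab1 and not Gab2, a difference between the 2 genes that was not itself tested.

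In PI3K signalling, 2 of 10 tested genes rose and 1 fell. Pik3cd, the catalytic subunit p110 delta of white blood cells, rose from 9.56 ± 3.76 to 32 ± 2.16 CPM (log2 fold change 1.74, SE 0.26, adjusted p = 0.000483). Pik3r1, the main regulatory subunit, fell from 95.4 ± 28.6 to 45.1 ± 2.86 CPM (log2 fold change -1.08, SE 0.26, adjusted p = 0.00809). A catalytic and a regulatory subunit of the same enzyme class so moved in opposite directions.

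Of 12 tested genes of the RAS and ERK cascade, 3 rose and 2 fell. The kinase gene Braf rose from 31.8 ± 13 to 87.8 ± 10.8 CPM (log2 fold change 1.46, SE 0.28, adjusted p = 0.00249). Rasa1, which switches RAS off, fell from 277 ± 108 to 108 ± 14.5 CPM (log2 fold change -1.36, SE 0.28, adjusted p = 0.00337). Counted apart from these 12, 1 of 2 tested phospholipase C gamma genes rose. It was Plcg2, a phospholipase of blood cells, which rose from 4.27 ± 2.13 to 9.94 ± 0.664 CPM (log2 fold change 1.22, SE 0.39, adjusted p = 0.0299). Leaving out Egfp_OE replicate 1 or any Kitl_OE library ended the Plcg2 call, with adjusted p-values from 0.0546 to 0.0814. With spike-in scaling Pik3r1, Braf, Rasa1 and Plcg2 missed the threshold, with adjusted p-values from 0.0766 to 0.251. Pik3r1 and Plcg2 also missed it with limma on log2(TPM + 1) (0.0586 and 0.0525) and log2(TPM + 0.1) (0.0551 and 0.0556), and Plcg2 with only the Egfp_OE and Kitl_OE libraries in the fit (0.0607).

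Among the negative regulators 1 of 5 tested genes fell, and 1 of 3 genes of ligand cleavage rose. Socs1, a feedback inhibitor of JAK kinases, fell from 17.6 ± 7.74 to 5.86 ± 1.19 CPM (log2 fold change -1.59, SE 0.33, adjusted p = 0.00401). Adam33, a metalloprotease reported to cleave KITL, had 24 counts in the Egfp_OE libraries together and 939 in Kitl_OE, a rise from 0.295 ± 0.341 to 11.5 ± 5.39 CPM (log2 fold change 5.33, SE 1.05, adjusted p = 0.00267). The Adam33 log2 fold change was 6.71 without Egfp_OE replicate 2 and 2.58 on log2(TPM + 1).

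Of 5 tested related receptors and ligands, 1 rose and 1 fell, and of 3 transcription factors 1 fell. Csf1r, the receptor of macrophage colony-stimulating factor, rose from 2 ± 0.685 to 13.4 ± 4.5 CPM (log2 fold change 2.73, SE 0.50, adjusted p = 0.00171). Pdgfra, a platelet-derived growth factor receptor of fibroblasts, fell from 195 ± 36.2 to 15.2 ± 2.85 CPM (log2 fold change -3.68, SE 0.53, adjusted p = 0.000412). Gata2, a transcription factor of blood progenitors and mast cells, fell from 23.2 ± 2.52 to 2.03 ± 0.631 CPM (log2 fold change -3.51, SE 0.25, adjusted p = 5.5e-06). Pdgfra stood far above Kit in Egfp_OE, at 57.2 ± 19.9 TPM, and was the receptor of this family with the largest change among those tested here.

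Leaving out Egfp_OE replicate 2 ended none of the calls of these named pathway genes. The log2 fold changes were then -1.68 for Fes, 1.42 for Gab1, 1.48 for both Vav2 and Pik3cd, -1.30 for Pik3r1, 1.18 for Braf, -1.63 for Rasa1, 0.89 for Plcg2 and -1.22 for Socs1. Csf1r stood at 2.502, Pdgfra at -3.81 and Gata2 at -3.46.

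**Figure D5:**
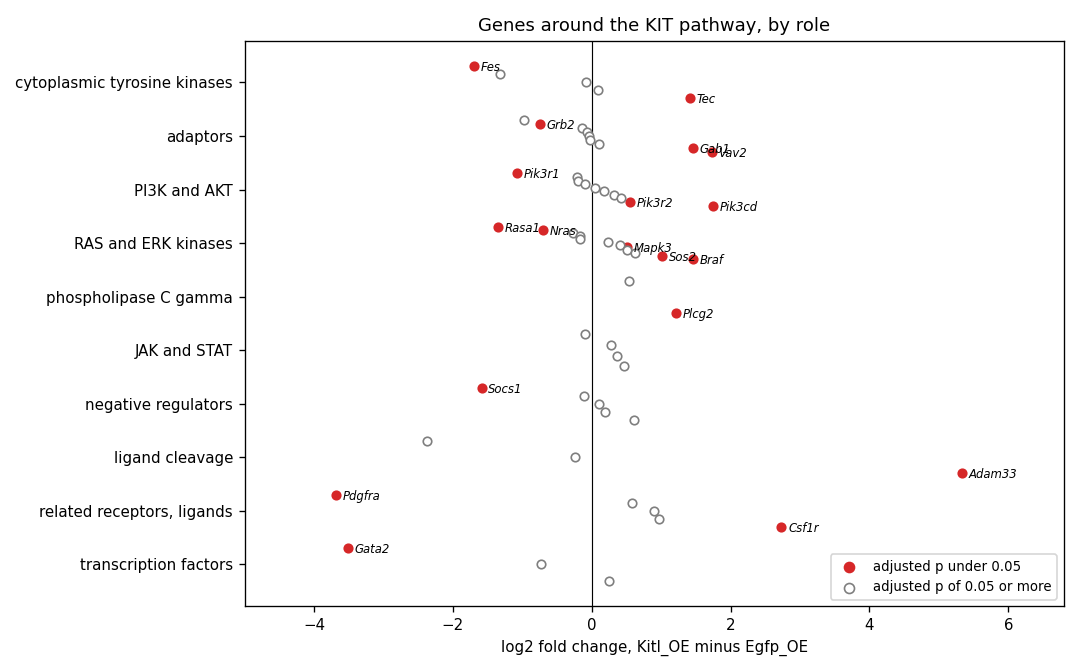
Log2 fold change in Kitl_OE minus Egfp_OE for 58 of the 60 tested pathway genes, 1 point per gene, grouped by role, with red points past an adjusted p of 0.05 in edgeR and their names. Of the genes drawn, 11 are called higher and 8 lower; the 2 genes not drawn are not reported here and were both called lower.

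The difference between the 2 effects passed in edgeR for 5 of the 60 genes (8.33%) as higher and 8 (13.3%) as lower, beside 4.07% and 9.88% over all genes. Vav2 differed by 1.72 (SE 0.31, adjusted p = 0.00474), Pik3cd by 1.92 (SE 0.36, adjusted p = 0.00515) and Sos2, an exchange factor that activates RAS, by 1.47 (SE 0.33, adjusted p = 0.0131). On the lower side were Pdgfra with -4.41 (SE 0.70, adjusted p = 0.00206; -3.68 without shKitl replicate 2), Gata2 with -2.94 (SE 0.33, adjusted p = 0.00023) and Socs1 with -2.11 (SE 0.47, adjusted p = 0.0121). Of these 6, Pdgfra and Gata2 kept the call with spike-in scaling, and the adjusted p-values of the other 4 ran from 0.074 to 0.27. Sos2 also missed it with limma on log2(TPM + 1) (0.0507), on log2(TPM + 0.1) (0.0542) and with the P number as a covariate (0.0534).

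Genes whose pattern over the 12 libraries was most like that of Kitl, Lyn or Ptpn6 were ranked among 13217 named genes by the root mean square difference of log2 CPM after centring each gene on its mean. For Kitl they were Efnb1 (0.33), Mamld1 (0.342), Rassf3 (0.42), Pdik1l (0.439) and Abhd15 (0.442). Efnb1, which encodes ephrin-B1, averaged 17.5 CPM in shCtrl, 9.11 in shKitl, 16.1 in Egfp_OE and 33.4 in Kitl_OE. For Lyn the closest were Abca4 (0.161), Stim1 (0.211) and Map3k20 (0.218), and for Ptpn6 they were Smpd5 (0.346), Erbb3 (0.349) and Armcx6 (0.351). Without Egfp_OE replicate 2, Efnb1 and Mamld1 remained among the 5 closest to Kitl, Abca4 among the 3 closest to Lyn and Smpd5 among the 3 closest to Ptpn6. These are descriptions over libraries that share the same 4 groups. Abca4, Abhd15, Smpd5 and Erbb3 averaged only 0.411, 0.429, 0.53 and 0.883 CPM in shCtrl, so counting error weighs more in their patterns.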

How the data were processed

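Members and gene lists were chosen with earlier results of these data known. The authors deposited raw read counts per gene and TPM values of the same 12 libraries; per the submitters' processing notes, reads were aligned to GRCm38 with STAR 2.5.2b and counted with featureCounts of Subread 1.5.2. Strand setting, annotation release and the gene lengths behind TPM: not given in the sources used here. Library sizes and tests left out the 92 ERCC entries (0.446% to 1.35% of counts).

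Counts were fitted with edgeR 4.0.16 in R 4.3.3 (filterByExpr, TMM, robust quasi-likelihood, 1 coefficient per group, all 12 libraries), with Benjamini-Hochberg adjustment over 15271 genes and a threshold of 0.05. The procedure was tested on simulated data. Groups came from the sample titles. An exact permutation test of 3 against 3 libraries cannot go below a two-sided p of 0.1. Depth of 24979742 to 33517686 counts leaves counting error small for the tested members except Ptpn6. It is larger for other low genes named here, among them Adam33, Fes, Csf1r and Gata2, with lowest library counts of 1, 30, 31 and 36. Alternatives used DESeq2 1.42.0, limma 3.58.1 on log2(TPM + 1) and log2(TPM + 0.1), spike-in totals, DESeq2 size factors in edgeR, every gene with any count, a replicate block, the P number of the sample descriptions (its meaning is not stated) as a covariate, fits on 2 groups alone, and leaving out each library in turn.

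The text names all members, up to 2 called genes with the largest change per role and comparison, and the genes most like Kitl (5), Lyn and Ptpn6 (3 each). Some genes so named for the difference of effects are given only as counts, and some items are not reported here. Coordinates are from GENCODE M21 and promoter sequences from RefSeq.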

Additional observations from a re-analysis of the deposited data

How the results depend on the processing

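Over 21 alternatives 0 fold changes of named genes past the threshold changed sign, and 11 values that had not passed did. On log2(TPM + 1), where low genes change less by construction, Csf1r rose by 2.00 and Gata2 fell by 2.67 in the overexpression. In the knockdown, Kitl passed the threshold in DESeq2 (-1.50) and with every gene with any count (-1.47), and ran from -1.57 to -1.42 as each library was left out. Knockdown calls among the 9 genes were 2 in DESeq2, 1 with any count and 0 to 2 with a library left out; among the pathway genes 0 to 2; and among all genes 428, 23, 7 with limma on log2(TPM + 1), and 0 to 277. In the overexpression only spike-in scaling moved the counts by over 1.5 times: Kitl 0.95, 3 of the 9 genes, 11 pathway genes and 2351 genes in all, against 5236 genes with TMM. The difference of effects under spike-in scaling was 2.496 for Kitl, with 0 of the 9, 3 pathway genes and 919 genes in all; with log2(TPM + 1) it had 2, 5 and 1291 calls, with log2(TPM + 0.1) 1 of the 9 and 6 pathway genes, and with the P number 7 pathway genes. Leaving out a library gave 2 to 4, 7 to 14 and 1245 to 2842 calls. Between the control lines, DESeq2 called 2 of the 9, 4 pathway genes and 1460 genes, any count 1 pathway gene and 349 genes, log2(TPM + 0.1) 104, spike-in scaling 10, the P number 0 and only the groups compared 0 genes, and leaving out a library 0 to 1, 0 to 3 and 0 to 771, against 191. Spike-in scaling moved the median of all genes there from 0.05 to -0.34. The cause of these changes was not tested.

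The labels do not say that replicate numbers pair the samples, and no pairing was used in the main fit. Deviations of same-numbered libraries correlated at 0.151, -0.259 and 0.527 between the hairpin lines and at 0.026, 0.204 and 0.169 between the overexpression lines. Libraries with different replicate numbers gave -0.609 to 0.556 and -0.176 to 0.108. Among these, libraries with the same P number gave 0.556 and 0.319 between the hairpin lines and -0.002 and -0.176 between the overexpression lines. So few values cannot settle whether samples were paired. With the replicate block the calls among the 9 genes stayed at 0, 5, 4 and 0 in the 4 comparisons, and those between the control lines over all genes went from 191 to 82. Only the groups compared could not be used for the difference of effects, which needs all 4 groups.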
